A study of Mus musculus with 48 samples.

Results

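The 9 genes described here encode enzymes that make or interconvert non-essential amino acids: Asns, Pycr1, Aldh18a1, Ass1, Got1, Gpt2, Glul, Cth and Cbs. They were taken by name from a table of 27281 genes, of which 13409 carried a symbol and reached a mean log2 abundance of 1 and were tested, all 9 among them. RNA-Seq was performed on 48 samples of murine striatal progenitor cells labelled as C57BL/6, 3 samples in each of 16 conditions. All cells were kept for 24 hours in serum-free medium. STHdhQ111 cells, which carry mutant huntingtin with an expanded polyglutamine tract, received vehicle or a single protective compound out of 14, and STHdhQ7 cells, the wild-type counterpart, received vehicle. The study asked how these compounds act in a cell model of Huntington's disease.

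Diacylglycerol kinase inhibitor II (DKI), meclizine, cyproheptadine, selisistat and loxapine were applied at 10 µM, with pizotifen at 5 µM and cysteamine at 250 µM. Sodium butyrate was given at 1 mM and 4-deoxypyridoxine (DOP) at 4 mM. Fingolimod phosphate was given at 250 nM, trichostatin A at 10 nM, nortriptyline at 1 nM, and nicotinamide and haloperidol at 0.5 nM. Each genotype is represented by a single line of conditionally immortalized cells, so genotype and line cannot be told apart. Nothing in the labels says that the 3 samples of a condition came from separate cultures, so the p-values measure only the spread between these samples.

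Cells that lack an amino acid, or whose endoplasmic reticulum or mitochondria are disturbed, phosphorylate the initiation factor eIF2 and translate the transcription factor ATF4, a program called the integrated stress response. ATF4 pairs with C/EBP proteins on a composite DNA site, the C/EBP-ATF response element, and raises genes for amino acid transport and synthesis, of which asparagine synthetase is the classic example. Proline, alanine, aspartate and cysteine synthesis contain other such targets, whereas glutamine synthetase is known mainly from astrocytes, which use it to clear glutamate.

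The core of that composite site, TGATGNAA, was searched on both strands in promoter windows from 250 bases before to 50 bases after the annotated start (RefSeq, GRCm38.p6). Windows were found for 8 of the 9 genes, with none for Cth. The core was matched in 3 of them, Asns, Pycr1 and Got1, against 3.97% of all 32841 windows. These 3 upstream sequences are shown because they hold a match, which the capitals mark. Each runs 5′ to 3′ along the gene's own strand and covers the 250 bases before the start, at chr6:7693210-7693459 for Asns, chr11:120643749-120643998 for Pycr1 and chr19:43524606-43524855 for Got1, all on the minus strand.
Asns: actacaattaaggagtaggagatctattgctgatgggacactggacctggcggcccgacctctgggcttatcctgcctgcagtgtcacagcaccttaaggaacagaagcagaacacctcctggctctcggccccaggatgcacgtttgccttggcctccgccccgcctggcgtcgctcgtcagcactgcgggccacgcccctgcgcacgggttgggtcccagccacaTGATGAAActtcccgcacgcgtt
Pycr1: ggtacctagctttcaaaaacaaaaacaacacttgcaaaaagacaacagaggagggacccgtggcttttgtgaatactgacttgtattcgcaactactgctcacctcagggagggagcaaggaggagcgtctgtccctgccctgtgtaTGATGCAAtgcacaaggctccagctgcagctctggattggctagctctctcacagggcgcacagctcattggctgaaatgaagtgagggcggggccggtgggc
Got1: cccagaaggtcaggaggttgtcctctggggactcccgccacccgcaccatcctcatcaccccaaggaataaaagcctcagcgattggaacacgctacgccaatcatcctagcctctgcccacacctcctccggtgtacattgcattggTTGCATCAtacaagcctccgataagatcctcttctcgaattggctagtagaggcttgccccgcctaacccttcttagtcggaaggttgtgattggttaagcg

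Counted from the start, the match lay at bases -23 to -16 in Asns and -103 to -96 in Pycr1, both in the forward direction. In Got1 it lay at -102 to -95 in the reverse direction. The windows of Aldh18a1, Gpt2, Ass1, Glul and Cbs held no match to these letters. A match is a description of the letters and says nothing of whether a factor binds there.

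**Figure D1:**
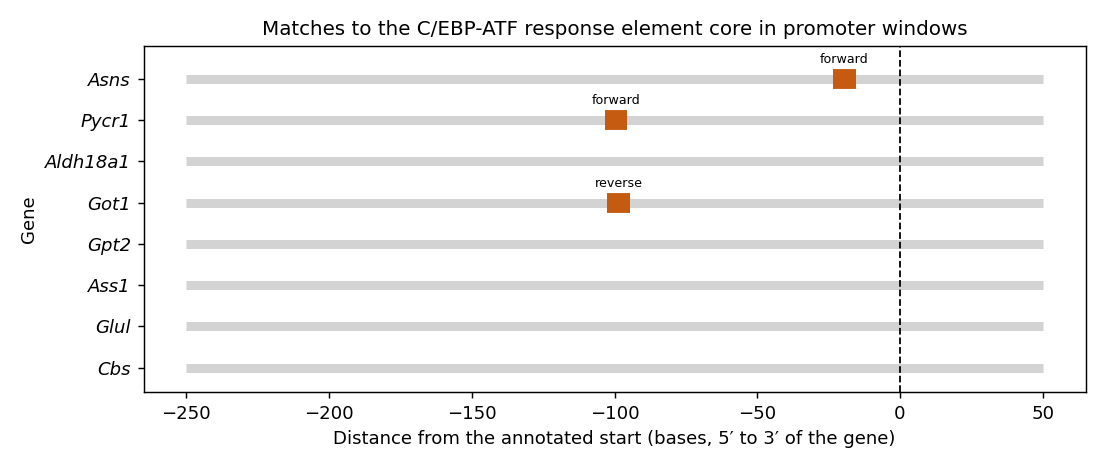
Positions of matches to the C/EBP-ATF response element core (orange, with their direction) in the promoter windows of 8 genes (grey bars), against the distance in bases from the annotated start (dashed line). Asns, Pycr1 and Got1 each hold 1 match, and the other 5 windows hold none.

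On GRCm38 the genes lie on chromosome 6 from 7675169 to 7693254 (Asns, ENSMUSG00000029752), chromosome 11 from 120635712 to 120643769 (Pycr1, ENSMUSG00000025140) and chromosome 19 from 40550257 to 40588463 (Aldh18a1, ENSMUSG00000025007). Got1 (ENSMUSG00000025190) lies on chromosome 19 from 43499752 to 43524605, Gpt2 (ENSMUSG00000031700) on chromosome 8 from 85492576 to 85527560 and Cth (ENSMUSG00000028179) on chromosome 3 from 157894248 to 157925077. Ass1 (ENSMUSG00000076441) spans 31470207 to 31520672 on chromosome 2, Glul (ENSMUSG00000026473) spans 153899944 to 153909723 on chromosome 1 and Cbs (ENSMUSG00000024039) spans 31608894 to 31637238 on chromosome 17. In the annotation Glul shares its span with Teddm2 on the opposite strand and Mir8114 on its own. Cth shares its span with Gm43314 and Aldh18a1 with the processed pseudogene Gm15801, each on the same strand. The strand setting of the quantification is not given in the sources used here.

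All abundances below are the authors' normalized log2 values per gene. Depth is unknown, since counts of reads are not part of them, and levels are compared across samples within a gene. A higher value in a gene than in another does not mean more transcripts, since the length of the genes is not accounted for. Samples of a condition correlated across genes at 0.9964 to 0.9994, and no sample was identical to another. Of markers of the labelled cell type, Vim was high in all samples (14.79 to 15.70), while Fabp7 stayed below the minimum mean of 1. Nes was at 9.93 to 11.66 in the STHdhQ7 samples and 4.46 to 7.14 in the 45 STHdhQ111 samples, and Sox2 at 8.41 to 9.34 and 4.38 to 5.92. The fibroblast gene Col1a1 was at 13.63 to 15.14 in the 45 STHdhQ111 samples and 14.31 to 14.85 in the STHdhQ7 samples. Of the other fibroblast genes listed, Col1a2, Pdgfra and Dcn were above the minimum and Lum was below it. The striatal genes Drd1 and Bcl11b, the neuronal genes Rbfox3 and Snap25 and the astrocyte gene Gfap were below the minimum. In bulk RNA, fewer cells of a type and less RNA per cell cannot be told apart.

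Against the STHdhQ111 vehicle control, 6 of the 9 genes rose together in 4 compounds: Asns, Pycr1, Aldh18a1, Got1, Gpt2 and Cth were called higher in DKI, meclizine, cyproheptadine and pizotifen. Loxapine raised 4 of them, all but Got1 and Cth. Ass1, Glul and Cbs were called in none of these 5 compounds. In meclizine Ass1 was 0.28 higher and missed the threshold (adjusted p = 0.0602 in limma), with its samples above those of vehicle. Under the alternatives described below its adjusted p ran from 0.00371 to 0.496. In other compounds the calls were different: Glul and Cbs rose with sodium butyrate, Glul with trichostatin A, and Ass1 with DOP and cysteamine. A gene was called when its adjusted p was under 0.05 in limma, with Benjamini-Hochberg adjustment over all 13409 genes tested. No member was called lower in any compound.

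**Figure D2:**
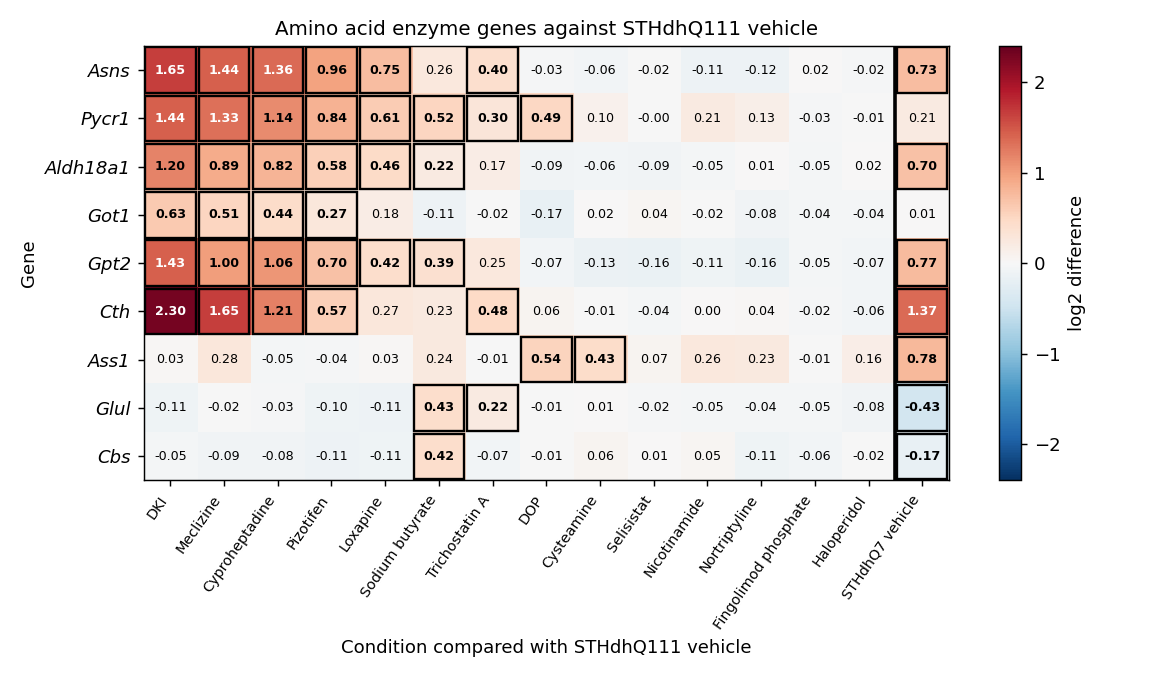
Log2 differences of the 9 genes (rows) between each condition (columns) and the STHdhQ111 vehicle control, in red where higher and blue where lower. Outlined cells in bold were called, and the first 5 columns are called for at least 4 of the upper 6 genes.

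The number called must be read against the share of all genes called. Where samples are said below not to overlap, the share of all genes tested without overlap was not counted, so this is a description. DKI called 6 members of 9 with 42.3% of all genes tested called, and cyproheptadine called 6 with 35.6%. Meclizine called 6 with 26.8%, pizotifen 6 with 17.9% and loxapine 4 with 21.9%. The median log2 difference over the 9 genes was 1.20 in DKI, 0.89 in meclizine, 0.82 in cyproheptadine, 0.57 in pizotifen and 0.27 in loxapine. Over all genes tested the medians of these 5 comparisons lay between -0.0058 and 0.0048. Sodium butyrate called 5 members with 37.5% of all genes called. Trichostatin A called 4 with 13.1%, DOP 2 with 20.1% and cysteamine 1 with 7.83%. For DOP and cysteamine the members' share was near that of all genes. A count out of 9 is coarse, so the other counts need not stand clearly above the background either. None of them was tested against it.

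The 5 other compounds called no member. Selisistat called 0.515% of all genes, nicotinamide 10.4%, nortriptyline 3.83% and fingolimod phosphate 0.0597%. Haloperidol called 0% in limma, with 397 genes and none of the 9 members at an unadjusted p under 0.05. Every comparison with vehicle shares the same 3 vehicle samples, so the values below stand side by side and are not independent of each other.

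Asns, which makes asparagine from aspartate with glutamine as nitrogen donor, was at 9.40, 9.45 and 9.51 in the vehicle samples. It was at 11.33, 10.90 and 11.10 in DKI, 11.003, 10.77 and 10.90 in meclizine and 10.75, 10.82 and 10.88 in cyproheptadine. In pizotifen it was at 10.31, 10.42 and 10.50 and in loxapine at 10.00, 10.30 and 10.29. No sample of these 5 compounds overlapped the vehicle samples. The log2 difference was 1.65 in DKI (SE 0.111, a 3.14-fold level, adjusted p = 1.67e-14 in limma), 1.44 in meclizine (SE 0.109, adjusted p = 2.12e-12) and 1.36 in cyproheptadine (SE 0.111, adjusted p = 2.18e-11). It was 0.96 in pizotifen (SE 0.109, adjusted p = 1.89e-07) and 0.75 in loxapine (SE 0.109, adjusted p = 6.22e-06). Among all genes tested, Asns had the 15th largest absolute difference in pizotifen. The order of condition means ran from DKI through meclizine, cyproheptadine and pizotifen to loxapine, and the ranges of DKI and meclizine touched, as did those of meclizine and cyproheptadine. DKI lay apart from cyproheptadine, cyproheptadine from pizotifen, and pizotifen from loxapine.

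Aldh18a1 and Pycr1 encode the enzymes at the beginning and the end of proline synthesis from glutamate, the former making pyrroline-5-carboxylate and the latter reducing it to proline. Aldh18a1 was at 9.62, 9.65 and 9.61 in vehicle, at 11.04, 10.64 and 10.79 in DKI and at 10.63, 10.39 and 10.55 in meclizine. It was at 10.32, 10.53 and 10.50 in cyproheptadine, 10.17, 10.24 and 10.20 in pizotifen and 9.93, 10.16 and 10.15 in loxapine. All 15 treated samples lay above all vehicle samples. The differences were 1.20 (SE 0.0843) in DKI, 0.89 (SE 0.0834) in meclizine, 0.82 (SE 0.0843) in cyproheptadine, 0.58 (SE 0.0834) in pizotifen and 0.46 (SE 0.0834) in loxapine, with adjusted p from 3.83e-14 to 0.000129 in limma. In DKI this is a 2.30-fold level.

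Pycr1 was at 6.48, 6.46 and 6.63 in vehicle, and its 3 samples were at 8.15, 7.80 and 7.92 in DKI and 7.93, 7.78 and 7.84 in meclizine. It was at 7.51, 7.74 and 7.73 in cyproheptadine, 7.24, 7.43 and 7.42 in pizotifen and 6.94, 7.39 and 7.08 in loxapine, again without overlap with vehicle. The differences were 1.44 in DKI, 1.33 in meclizine, 1.14 in cyproheptadine, 0.84 in pizotifen and 0.61 in loxapine (SE 0.0982 to 0.0993, adjusted p from 1.29e-12 to 2.18e-05 in limma for the last 4 and 2.7e-14 for DKI). Pycr1 was called in more compounds than any other member, 8 of 14. Sodium butyrate (0.52, adjusted p = 6.32e-05), DOP (0.49, adjusted p = 0.000507) and trichostatin A (0.30, adjusted p = 0.0378) made up the remainder.

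Got1 encodes the cytosolic aspartate aminotransferase, which supplies aspartate and takes part in the malate-aspartate shuttle. It was at 9.91, 9.94 and 9.95 in vehicle, 10.76, 10.43 and 10.49 in DKI and 10.52, 10.33 and 10.47 in meclizine. It was at 10.33, 10.35 and 10.42 in cyproheptadine, 10.27, 10.11 and 10.23 in pizotifen and 10.14, 10.08 and 10.11 in loxapine. Its rises were the smallest of the 6 genes in each of the 5 compounds: 0.63 in DKI (SE 0.0707, adjusted p = 2.97e-09), 0.51 in meclizine, 0.44 in cyproheptadine and 0.27 in pizotifen (SE 0.0699, adjusted p = 0.0052 in limma). In loxapine the difference of 0.18 (SE 0.0699) missed the threshold with an adjusted p of 0.063, although its 3 samples lay above the vehicle samples. Its 95% interval ran from 0.037 to 0.32.

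Gpt2, the mitochondrial alanine aminotransferase, was at 7.76, 7.88 and 7.66 in vehicle. It was at 9.33, 9.04 and 9.21 in DKI, 8.80, 8.72 and 8.77 in meclizine and 8.60, 8.87 and 9.001 in cyproheptadine. In pizotifen it was at 8.44, 8.47 and 8.47 and in loxapine at 7.98, 8.27 and 8.32. The groups did not overlap with vehicle, and the differences were 1.43 (SE 0.0976) in DKI, 1.06 (SE 0.0976) in cyproheptadine, 1.00 (SE 0.0965) in meclizine, 0.70 (SE 0.0965) in pizotifen and 0.42 (SE 0.0965, adjusted p = 0.00146 in limma) in loxapine. Here cyproheptadine ranked above meclizine, but their ranges touched.

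Cth and Cbs make up the transsulfuration route, in which Cbs joins homocysteine and serine to cystathionine and Cth cleaves it to cysteine. Cth was at 5.67, 5.62 and 5.48 in vehicle, 8.12, 7.68 and 7.88 in DKI and 7.38, 6.98 and 7.37 in meclizine. It was at 6.63, 6.84 and 6.94 in cyproheptadine, 5.98, 6.31 and 6.19 in pizotifen and 5.70, 5.95 and 5.94 in loxapine. The difference was 2.30 in DKI (SE 0.158, a 4.92-fold level, adjusted p = 2.4e-14 in limma), 1.65 in meclizine (SE 0.156, 3.14-fold, adjusted p = 2.4e-10) and 1.21 in cyproheptadine (SE 0.158, adjusted p = 1.63e-07). In DKI it had the 5th largest absolute difference of all genes tested and in meclizine the 9th. In pizotifen it was 0.57 (SE 0.156, adjusted p = 0.0091), and without pizotifen replicate 2 it was 0.49 and no longer called (adjusted p = 0.058). In loxapine it was 0.27 and not called (adjusted p = 0.226), with all 3 samples above the vehicle samples by as little as 0.030 within a day.

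Cbs, the preceding enzyme, stayed at 2.95 to 3.22 in the samples of these 5 compounds and 3.16 to 3.26 in vehicle, and its differences of -0.11 to -0.05 were not called. Its mean over all samples was 3.18, and the counts behind this value are unknown.

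**Figure D3:**
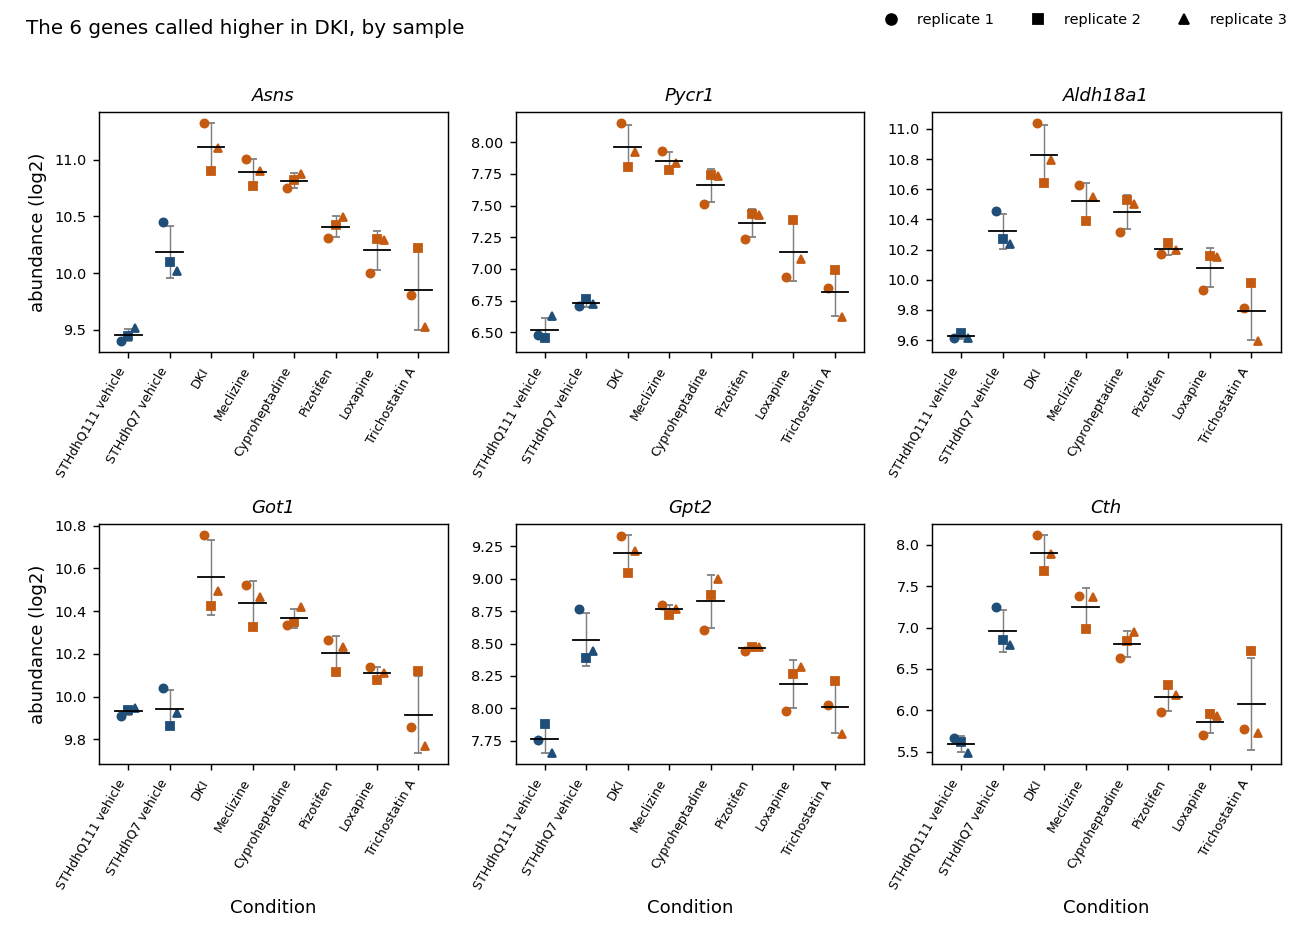
Normalized log2 abundance of Asns, Pycr1, Aldh18a1, Got1, Gpt2 and Cth in each sample (marker shape gives the replicate) of both vehicle controls (blue) and 6 compounds (orange), with the mean (line) and SD (bar) of 3 samples. All samples of DKI, meclizine, cyproheptadine, pizotifen and loxapine lie above all STHdhQ111 vehicle samples, and trichostatin A replicate 2 lies above its other samples.

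Over the 6 genes and 5 compounds, 90 of 90 sample values lay above every vehicle sample of the same gene, which describes genes and compounds picked for that rise and is no further evidence of it. The calls of DKI, meclizine and cyproheptadine in these genes held under every alternative tried. In DKI the summed fibroblast markers were at 14.27 on the log2 scale against 15.08 in vehicle, and the summed neural progenitor markers, which Vim dominates, were at 14.93 against 15.43. Their part in these results was not tested.

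By their metabolite profiles, the study placed DKI and meclizine in a Group B and the other 3 compounds, pizotifen, loxapine and cyproheptadine, in a Group A. In its gene expression data these compounds clustered in a common group, and the study called the groups nearly indistinguishable by RNA. The mean of Group A was lower than that of Group B for the same 6 members, with 41.3% of all genes called in this comparison. Cth fell by 1.29 on the log2 scale (SE 0.101, adjusted p = 4.14e-13 in limma), the 7th largest absolute difference of all genes tested. Its 9 Group A samples, up to 6.94, lay below its 6 Group B samples, from 6.98 upwards. Asns differed by -0.52 (SE 0.0706), Pycr1 by -0.52 (SE 0.0634), Gpt2 by -0.49 (SE 0.0623), Aldh18a1 by -0.43 (SE 0.0539) and Got1 by -0.27 (SE 0.0451), with adjusted p from 1.66e-08 to 5.14e-06. Of these 5 genes, Pycr1 alone did not overlap between the groups. Ass1 stood at -0.17 with an adjusted p of 0.0511, and at 0.0493 with the replicate number as a block. The doses were not all alike, since pizotifen was given at 5 µM and the others at 10 µM. The p-values of this comparison rest on the spread between samples within a condition. They do not measure the spread between the few compounds of each group. Gpt2 had a mean of 8.83 in cyproheptadine and 8.19 in loxapine, both of Group A, and 8.76 in meclizine of Group B.

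Cth also moved relative to the other 5 rising genes. The log2 value of Cth minus the mean of Asns, Pycr1, Aldh18a1, Got1 and Gpt2 was -3.19 to -2.96 in vehicle. Relative to the vehicle mean it was 1.03 higher in DKI, 0.62 higher in meclizine and 0.25 higher in cyproheptadine. In pizotifen it was at -0.10 and in loxapine at -0.21 of the vehicle mean, where the samples ran from -3.30 to -3.03 and from -3.30 to -3.26. In STHdhQ7 vehicle it was 0.88 higher. This measure was chosen after the values were seen and was not tested.

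Compounds given at the same dose of 10 µM were compared directly in 3 pairs. DKI exceeded meclizine in Cth by 0.65 (SE 0.158, adjusted p = 0.00736 in limma), in Gpt2 by 0.43 (SE 0.0976, adjusted p = 0.00372) and in Aldh18a1 by 0.31 (SE 0.0843, adjusted p = 0.0183), 3 of 9 members with 8.11% of all genes called. Asns (0.22, 95% interval -0.0065 to 0.44), Pycr1 (0.11, -0.090 to 0.31) and Got1 (0.12, -0.022 to 0.26) were not called. The intervals of Asns and Pycr1 reach past the 0.31 of Aldh18a1, and that of Got1 does not. Without DKI replicate 1, the highest DKI sample in all 6 genes, none of the 9 was called in this pair. Without meclizine replicate 2, the lowest meclizine sample in these genes, 1 was called, Gpt2.

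DKI exceeded cyproheptadine in all 6 genes, with 28.6% of all genes called. The difference was 1.09 in Cth (SE 0.156, adjusted p = 9.54e-07), 0.38 in Aldh18a1, 0.37 in Gpt2, 0.30 in Pycr1, 0.29 in Asns and 0.19 in Got1, the last with an adjusted p of 0.035 in limma. Cth and Aldh18a1 stayed called with any sample left out, whereas without cyproheptadine replicate 1 the other 4 were not called. Without DKI replicate 1, 3 of the 6 were called.

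Cyproheptadine exceeded loxapine in the same 6 genes, with 10.5% of all genes called. The differences were 0.94 in Cth (SE 0.158, adjusted p = 0.000115 in limma), 0.64 in Gpt2 (SE 0.0976, adjusted p = 4.53e-05), 0.61 in Asns, 0.53 in Pycr1, 0.37 in Aldh18a1 and 0.26 in Got1 (adjusted p = 0.0142). Got1 was not called without loxapine replicate 2 (adjusted p = 0.0625) or cyproheptadine replicate 3 (adjusted p = 0.0677). In none of these genes did the samples of both compounds overlap. Ass1, Glul and Cbs were not called in any of the 3 pairs.

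**Figure D4:**
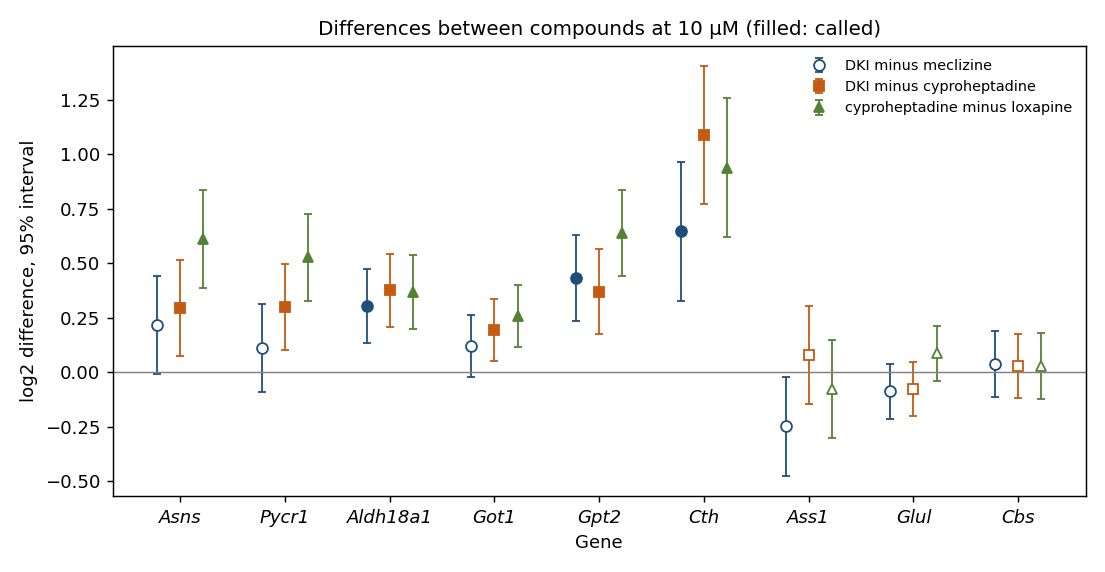
Log2 differences of the 9 genes between compounds given at 10 µM, with 95% intervals from the moderated variance, for DKI minus meclizine, DKI minus cyproheptadine and cyproheptadine minus loxapine. Filled symbols were called, and Cth has the highest value in each of the 3 pairs.

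Glul encodes glutamine synthetase, which joins ammonia to glutamate. It was at 8.76, 8.65 and 8.74 in vehicle and at 9.07, 9.22 and 9.15 in sodium butyrate, without overlap. The rise was 0.43 (SE 0.0611, a 1.35-fold level, adjusted p = 9.12e-07 in limma), and each collection day showed it, with 0.31 to 0.56. With trichostatin A, which like butyrate inhibits histone deacetylases, it was at 9.03, 8.87 and 8.93, a rise of 0.22 (SE 0.0611, adjusted p = 0.0114) that each day showed at 0.19 to 0.27. This call was lost with only the compared samples in the fit (adjusted p = 0.0569), without trichostatin A replicate 1 (adjusted p = 0.117) and without vehicle replicate 2. The samples of both inhibitors lay above the vehicle samples. In the other 12 compounds Glul was not called, with differences of -0.11 to 0.01.

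The 4 astrocyte markers in the table summed to 7.53 to 7.63 on the log2 scale in vehicle, 7.88 to 8.001 in sodium butyrate and 7.35 to 7.60 in trichostatin A. They were thus higher with sodium butyrate, in which Glul rose by more, and not with trichostatin A. Gfap, the defining marker among them, was below the minimum in all samples. Their part in the rise of Glul was not tested.

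Sodium butyrate also raised Cbs, from 3.18, 3.26 and 3.16 in vehicle to 3.58, 3.72 and 3.55, a difference of 0.42 (SE 0.0735, adjusted p = 2.74e-05 in limma). No other compound called Cbs, and trichostatin A gave -0.07. Of the 6 genes above, sodium butyrate raised Pycr1 by 0.52, Gpt2 by 0.39 (adjusted p = 0.00154) and Aldh18a1 by 0.22 (adjusted p = 0.0354). The call of Aldh18a1 was lost under 6 alternatives, with adjusted p up to 0.115. Asns at 0.26 (adjusted p = 0.057) and Cth at 0.23 (adjusted p = 0.247) were not called, with their samples above those of vehicle. Got1 went the other way, at -0.11 (adjusted p = 0.207 in limma), and was not called, with its samples below those of vehicle. Asns was called under 3 alternatives, with 0.38 (adjusted p = 0.0023) against reference samples from the same collection slots.

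In trichostatin A the calls of Cth, Asns and Pycr1 were lost without replicate 2. Cth was at 5.78, 6.72 and 5.73, Asns at 9.80, 10.22 and 9.52 and Pycr1 at 6.85, 6.99 and 6.62, and replicate 2 was the highest in each. Within collection days Cth was 0.10, 1.10 and 0.25 above vehicle, so that most of its rise lay in replicate 2. Asns was 0.40, 0.77 and 0.01 above and Pycr1 stood at 0.37, 0.54 and -0.01, so that replicates 1 and 2 both lay above vehicle. The differences of 0.48 in Cth (adjusted p = 0.0336), 0.40 in Asns (adjusted p = 0.0125) and 0.30 in Pycr1 (adjusted p = 0.0378) were 0.15, 0.20 and 0.20 without it. Glul was then the single member called, at 0.26 (adjusted p = 0.0089 in limma), and with only the compared samples in the fit none of the 9 was called. In replicate 2 all 6 genes lay above their trichostatin A means, by 0.29 on average, and Trib3 was at 8.51 against 7.19 and 6.98 in the other 2 samples.

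Ass1 encodes argininosuccinate synthetase, which joins citrulline and aspartate on the way to arginine. It was at 9.64, 9.40 and 9.49 in vehicle, 10.05, 10.04 and 10.05 in DOP and 9.95, 10.01 and 9.88 in cysteamine, without overlap. The rise was 0.54 in DOP (SE 0.111, adjusted p = 0.000644 in limma) and 0.43 in cysteamine (SE 0.111, adjusted p = 0.0124). Ass1 was also at 9.71 to 9.86 in nicotinamide and 9.59 to 9.86 in nortriptyline, compounds given at 0.5 and 1 nM and collected in the same day and time slots as DOP and cysteamine. Loxapine and sodium butyrate shared these slots too, with Ass1 at 9.51 to 9.58, near vehicle, and at 9.58 to 9.94. Against the mean of nicotinamide and nortriptyline, the difference was 0.29 in DOP (adjusted p = 0.0416) and 0.19 in cysteamine, which was then not called (adjusted p = 0.574). Without vehicle replicate 2, the lowest vehicle sample, cysteamine was not called either.

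**Figure D5:**
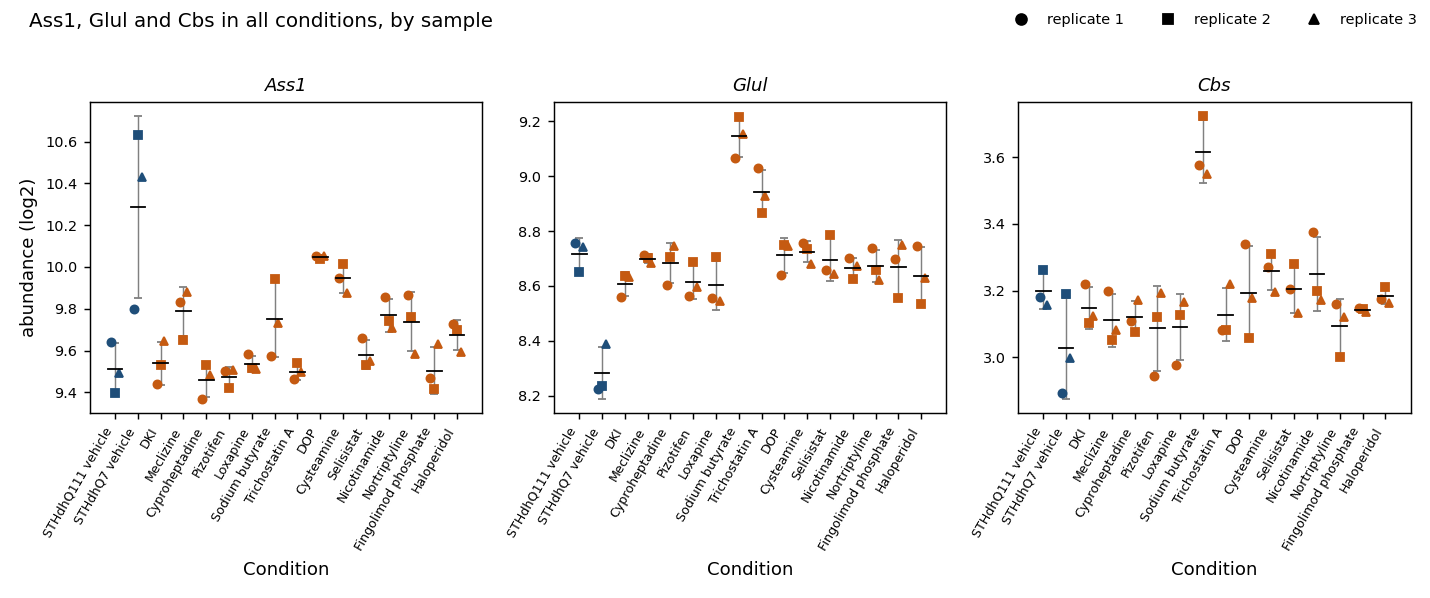
Normalized log2 abundance of Ass1, Glul and Cbs in each sample (marker shape gives the replicate) of both vehicle controls (blue) and the 14 compounds (orange), with the mean (line) and SD (bar) of 3 samples. Glul is highest in sodium butyrate and trichostatin A and lowest in STHdhQ7 vehicle, Cbs is highest in sodium butyrate, and STHdhQ7 replicate 1 has a lower Ass1 value than its other samples.

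Without any compound, the STHdhQ7 and STHdhQ111 vehicle controls differed in 7 of the 9 genes, with 55.8% of all genes called between the lines. Cth was at 7.25, 6.84 and 6.78 in STHdhQ7 cells against 5.67, 5.62 and 5.48, a difference of 1.37 (SE 0.156, a 2.58-fold level, adjusted p = 1.23e-09 in limma). Asns was at 10.45, 10.10 and 10.02 and 0.73 higher, Gpt2 was at 8.77, 8.39 and 8.44 and 0.77 higher, and Aldh18a1 was at 10.46, 10.27 and 10.23 and 0.70 higher. Replicate 1 was the highest STHdhQ7 sample in all 4, and none of them overlapped between the lines. Pycr1 (0.21, 95% interval 0.0096 to 0.41, adjusted p = 0.0692 in limma) missed the threshold, with its samples above those of STHdhQ111 vehicle. Got1 (0.01, 95% interval -0.13 to 0.15, adjusted p = 0.898) was not called, and its samples overlapped. The 6 genes that rose together with the compounds were therefore not all called higher in the wild-type line, where Got1 was near its STHdhQ111 level.

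Ass1 was 0.78 higher in STHdhQ7 cells (SE 0.111, adjusted p = 1.48e-07 in limma) at 9.80, 10.63 and 10.43, with replicate 1 far below the other 2. The difference by collection day was 0.16, 1.24 and 0.94, and it was 1.04 without STHdhQ7 replicate 1. Glul was at 8.22, 8.24 and 8.39, lower than in STHdhQ111 cells by -0.43 (SE 0.0611, adjusted p = 1.24e-07), and the summed astrocyte markers were lower as well, at 6.56 to 7.15. Their part was not tested. Cbs was at 2.89, 3.19 and 3.00, a difference of -0.17 that was just called (adjusted p = 0.0442) with overlapping samples, and the call was lost under 7 of the alternatives tried.

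The 6 rising genes, but not all members, also varied together within conditions. After condition and collection day were removed, the 6 rising genes correlated with each other over the 48 samples at 0.25 to 0.88, with a median of 0.67 over 15 pairs. With Ass1, Glul and Cbs they correlated at -0.32 to 0.27, with a median of -0.12 over 18 pairs. Asns correlated with all genes tested at a median of -0.022, with quartiles of -0.19 and 0.15. The highest pair was Asns with Aldh18a1 at 0.88 and the lowest of the 6 genes was Pycr1 with Got1 at 0.25. These points share a library and its normalization, and the correlations are descriptions. The 6 genes were picked from these same data. Large deviations of a few samples, such as those below, enter the correlations, and their weight was not tested.

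Single samples stood out in all 6 genes at the same time. Trichostatin A replicate 3 was below its condition mean in all 6, by 0.24 on average, and DKI replicate 1 was above in all 6, by 0.20. DKI replicate 2, cyproheptadine replicate 1 and meclizine replicate 2 were below in all 6, by 0.18, 0.13 and 0.12. In these samples the mean of Ass1, Glul and Cbs deviated by -0.0639 to 0.0255. It deviated by more, -0.23, in STHdhQ7 replicate 1, where 5 of the 6 genes were above and the 6 averaged 0.17 above.

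Across the 16 condition means, with the collection day removed, Asns and Aldh18a1 correlated at 0.98, Asns and Gpt2 at 0.979 and Aldh18a1 and Gpt2 at 0.989. Glul and Cbs correlated at 0.77 with each other, while Ass1 stood between -0.35 and 0.041 with the 6 rising genes. Of 10726 other genes with a mean of at least 5, the pattern most like that of Asns was Slc7a11 (Pearson r 0.994, Spearman rho 0.982), the cystine transporter, followed by Aldh1l2 (0.987), a mitochondrial folate enzyme. Aldh18a1 was most like Trib3 (0.991) and Aldh1l2 (0.985), and Gpt2 was most like Aldh1l2 (0.983) and Trib3 (0.978). Got1 was most like Nars (0.984), which charges asparagine to its tRNA, and Mafg (0.976). Cth was most like Cdsn (0.983) and Wars (0.982), which charges tryptophan.

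The patterns of the other members had other neighbours. Pycr1 was most like Eif2s2 (0.964) and Eif4ebp1 (0.945), genes of translation initiation and its repression. Glul was most like Tmem37 (0.977) and Susd4 (0.926), Cbs was most like Galnt15 (0.877) and Tnxb (0.852), and Ass1 was most like 1190005I06Rik (0.894) and Uckl1 (0.864). For Ass1 these values fell to 0.805 and 0.769 without the STHdhQ7 condition. Spearman rho, which uses ranks alone, was 0.871 and 0.626 for the neighbours of Glul and 0.606 and 0.341 for those of Cbs. Cbs had a mean of 3.62 in sodium butyrate and at most 3.26 in any other condition, so its Pearson values lean on that condition. The values are descriptions over 16 conditions that share libraries and were picked as the highest of many.

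The stress regulators Atf4, Trib3 and Ddit3 were called higher in the same 5 compounds, and some of them in others. Atf4 was 1.32 higher in DKI, 1.20 in meclizine, 1.299 in cyproheptadine, 0.94 in pizotifen and 0.83 in loxapine. Trib3, a pseudokinase induced by ATF4, was 3.00, 2.68, 2.15, 1.51 and 1.25 higher in these compounds. Ddit3, which encodes the stress factor CHOP, was 1.90, 1.54, 0.95, 0.72 and 0.55 higher, with the highest adjusted p of the 3 genes at 0.00152 in limma (Ddit3 in loxapine). Trib3 was also called in sodium butyrate (0.62, adjusted p = 0.0174) and trichostatin A (0.61, adjusted p = 0.0462), and Atf4 in sodium butyrate (0.23, adjusted p = 0.0398). Among the 5 compounds Atf4 ranked cyproheptadine above meclizine, whereas Trib3 and Ddit3 ranked them as Asns and Cth did. Between the lines Trib3 was 1.81 higher in STHdhQ7 vehicle (adjusted p = 1.54e-09) and Atf4 0.54 higher (adjusted p = 2.9e-06), while Ddit3 stood at 0.02 (adjusted p = 0.884).

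The other enzymes of these pathways did not share the pattern as a list. Of 31 related enzymes tested, 10 were called higher and 6 lower in DKI, 5 and 2 in meclizine, 8 and 3 in cyproheptadine, 2 and 3 in pizotifen and 2 and 5 in loxapine. Their median difference was 0.083 in DKI, 0.028 in meclizine and 0.078 in cyproheptadine, against 1.20, 0.89 and 0.82 for the 9 members. Sodium butyrate called 14 higher and 6 lower, with 37.5% of all genes called, trichostatin A 7 and 4 with 13.1%, and DOP 4 and 3 with 20.1%. Between the lines 9 were higher and 9 lower in STHdhQ7 cells, with 55.8%. The share of all genes was 42.3% in DKI, 26.8% in meclizine, 35.6% in cyproheptadine, 17.9% in pizotifen and 21.9% in loxapine. Except in DKI, sodium butyrate and trichostatin A, where it was higher, the enzymes' share was near that of all genes. These counts were not tested against it.

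By role, Oat, ornithine aminotransferase, was called higher in 4 compounds and lower in 1. Glud1, glutamate dehydrogenase, was called lower in 6 compounds and higher in none, with -0.30 in cyproheptadine and -0.28 in DKI. Gfpt1, which feeds glutamine into hexosamines, was lower in 4 and higher in 1, cyproheptadine, at 0.31. Mdh2, the mitochondrial malate dehydrogenase, was higher in 4 compounds, with 0.32 in sodium butyrate, and Asrgl1, an asparaginase, was higher in 2 and lower in 1.

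Around cysteine, Mtr, which remakes methionine from homocysteine, was called lower in 8 compounds and higher in 1, DKI, at 0.33. Csad, which turns cysteine sulfinate towards taurine, was lower in 6 and higher in none, with -0.38 in cyproheptadine. Odc1, ornithine decarboxylase, was called higher in 4 compounds, with 0.66 in cyproheptadine and 0.58 in DKI, and Arg2, the mitochondrial arginase, was higher in 4, with 0.47 in sodium butyrate. Arg1, Nos1, Cps1 and Bhmt were below the minimum and were not tested.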

How the data were processed

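RNA-Seq of 48 samples was analysed, and the study's other assays were not used here. RNA was poly(A)-selected, made into directional libraries and sequenced as single-end reads. Per the labels and the study's methods, the authors removed adapters (Trimmomatic 0.36), mapped the reads onto transcripts of GRCm38.p5, estimated abundances with RSEM and tested differences with DESeq2. The authors deposited the normalized abundances, 1 per gene and sample, as values that were read here as log2. The unit is not named, but the values run from -2.34 to 18.62 and their linear sums differ between samples by at most 1.11 times. The transformation is not given in the sources used here. No counts could be had, so count models were not used.

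Genes with a symbol and a mean of at least 1 were tested, 13409 of 18178. Conditions (16) and collection days entered a linear model per gene in limma 3.58.1 (R 4.3.3), which moderated the variances along abundance and had 30 residual degrees of freedom. Two-sided p-values were adjusted by Benjamini-Hochberg in each of 19 comparisons, with a threshold of 0.05. The procedure was tested on simulated data. The replicate number is the collection day in the labels, except in 2 samples, replicate 1 of cyproheptadine and of DKI. Residuals of the same day correlated at -0.055 on average and those of other days at 0.0279, and 9 of 120 pairs of conditions passed 0.1 at the same number.

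Named genes were the 9 members, Atf4, Ddit3 and Trib3, the 2 enzymes called in most compounds in each of 5 roles (a certain gene among these is not reported here), and the 2 genes with a mean of at least 5 most like each member. The members and lists were chosen with earlier results of these data known. Gene positions come from GENCODE annotation of GRCm38 and promoter sequences from RefSeq. Alternatives changed the day term, the samples fitted, the minimum mean, the centring, the variance trend and the reference samples. Figures were drawn with matplotlib.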

Additional observations from a re-analysis of the deposited data

How the results depend on the processing

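Of 30 calls and non-calls of the 6 rising genes in DKI, meclizine, cyproheptadine, pizotifen and loxapine, 3 changed under an alternative: Cth in pizotifen was lost without pizotifen replicate 2, and Got1 and Cth in loxapine were called under 2 and 1 of 15 alternatives. No difference changed sign past the threshold. With the replicate number as a block in place of the collection day (replicate block), the paired fit called 6 members in DKI, 6 in meclizine, 5 in sodium butyrate and 4 in trichostatin A, and it changed no call but that of Ass1 between Groups A and B (-0.17, adjusted p = 0.0493 in limma).

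The counts that moved by over 1.5 times were these. With only the compared samples in the fit, trichostatin A called 0 members, DKI against meclizine 0 and nicotinamide 1 (Ass1). With no minimum mean, trichostatin A called 2. With reference samples from the same collection slots, cysteamine called 0. With 1 sample left out at a time, trichostatin A called 1 to 6, DKI against cyproheptadine 2 to 6, DKI against meclizine 0 to 3 and cysteamine 0 to 1. Fewer samples leave fewer residual degrees of freedom, and otherwise the cause was not tested. With 3 samples a condition and no counts, the counting error of each value is unknown.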
